A study of Mus musculus with 9 samples.

Results

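The enzymes that make cholesterol and fatty acids, with the proteins that switch their genes on and off, were followed across mouse bone marrow from healthy and leukemic animals. The set was a list of 30 gene symbols: the enzymes from acetyl-CoA to cholesterol, the regulators of sterol sensing, and the enzymes that build and desaturate fatty acids. Of these, 29 were read by a probe set that carries only their symbol, among 19938 genes measured, and Acat2 is not analysed here. Genes with several probe sets are represented by the brightest one, judged by its mean of 9 arrays. By role, 6 measured genes belong to the mevalonate steps, 11 to the sterol steps, 6 to the control of SREBP and 6 to fatty acid synthesis.

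RNA was measured on Affymetrix whole-transcript arrays in femur marrow of C57BL6 mice, in 3 groups of 3 arrays. The first group was marrow of wild type mice used whole, with 1 mouse for each array. The second was wild type marrow after lineage depletion, in which antibody-coated magnetic beads (a Miltenyi kit) take out cells that carry surface markers of mature blood cells, and each of its arrays held a pool of 3 mice. The third was marrow of 3 mice with an ERG transgene, an ETS family transcription factor of blood stem cells, collected when signs of their myeloid leukemia appeared, with 1 mouse for each array. The labels name no other allele or agent, and they state neither the age of the mice nor the species and promoter of the transgene.

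Cells build cholesterol from acetyl-CoA through mevalonate and isoprenoid units to squalene, which is closed to lanosterol and then trimmed, reduced and rearranged to cholesterol. SREBP transcription factors turn on the genes of this pathway: Scap carries them from the endoplasmic reticulum to the Golgi for cleavage when sterols are low, and Insig proteins hold Scap back when sterols are high. SREBP1, encoded by Srebf1, mainly drives fatty acid genes, and SREBP2, encoded by Srebf2, mainly drives cholesterol genes. Dividing cells need both products for new membranes.

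The medians of the arrays lay between 32.3 and 34.4 intensity units, and arrays of a group correlated across genes at r of 0.971 to 0.995. Whole marrow array 2 stood apart from the other arrays of its group in sex-linked genes: Xist was at a log2 intensity of 4.32 there and at 11.01 and 11.11 on arrays 1 and 3, while the Y-linked gene Eif2s3y was at 8.53 against 4.06 and 4.09. The leukemias had Xist at 10.59 to 11.05 and Eif2s3y at 3.98 to 4.18, and the lineage-negative pools had both, Xist at 8.80 to 10.07 and Eif2s3y at 7.89 to 8.23. Calls against whole marrow that changed without its array 2 are given with the results. In comparisons with the pools the part of the sex of the mice was not tested. The labelled tissues were checked with marker lists. The summed intensity of 12 neutrophil markers was 43107 to 50103 in whole marrow, 780 to 2534 in lineage-negative marrow and 16994 to 26342 in the leukemias. For 9 stem and progenitor markers it was 768 to 943, 2064 to 3145 and 1491 to 2712. The leukemia sum rested on Gata2 and Slamf1, which rose against whole marrow, to mean intensities of 1013.9 and 557.9. Cd34 and Procr fell, the other five did not pass, and the list's median log2 difference was -0.30. For 11 erythroid markers the sum was 3106 to 7390, 10693 to 13097 and 10951 to 15494. For 9 B cell markers it was 1260 to 5397 in whole marrow, against at most 494 in lineage-negative marrow and 568 in the leukemias. The sum of 9 T and NK cell markers did not separate the wild type groups. It was 1219 to 1732 in whole marrow, 834 to 1741 in lineage-negative marrow and 537 to 765 in the leukemias. Only 4 of these 9 markers were lower in lineage-negative than in whole marrow by limma. In bulk RNA, fewer cells of a type and less RNA per cell cannot be told apart, so every difference below is one of the mixed tissue.

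Promoters of 3 of the genes are shown because the control of this pathway is written in short sequence elements upstream of its enzymes. SREBP binds the sterol element, searched here as TCACNCCAC, and its partners NF-Y and Sp1 bind CCAAT and GGGCGG. The E-box CACGTG, which SREBP1 can also bind, was searched as well, each motif on both strands. RefSeq promoter windows of the assembly GRCm38.p6, from 250 bases before to 50 bases after a gene's start, were at hand for 23 of the 29 measured genes. Lss, which closes the sterol ring, and Fasn, the fatty acid synthase, are shown because they had the largest differences between leukemia and whole marrow among genes with a window. Hmgcs1, which makes HMG-CoA, is shown as the only one of the 23 whose window holds the sterol element, and it was chosen after that match was seen. Capitals mark CCAAT or its reverse, ATTGG, and in Hmgcs1 also the sterol element TCACCCCAC. The windows lie at chr10:76531355-76531654 (plus strand) for Lss, chr11:120824498-120824797 (minus strand) for Fasn and chr13:119690101-119690400 (plus strand) for Hmgcs1.
Lss: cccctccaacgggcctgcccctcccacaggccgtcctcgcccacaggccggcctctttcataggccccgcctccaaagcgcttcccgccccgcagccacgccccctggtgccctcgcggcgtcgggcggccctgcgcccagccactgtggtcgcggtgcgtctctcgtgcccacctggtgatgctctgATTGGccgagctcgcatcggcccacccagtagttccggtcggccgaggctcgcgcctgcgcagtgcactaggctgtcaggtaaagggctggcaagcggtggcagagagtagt
Fasn: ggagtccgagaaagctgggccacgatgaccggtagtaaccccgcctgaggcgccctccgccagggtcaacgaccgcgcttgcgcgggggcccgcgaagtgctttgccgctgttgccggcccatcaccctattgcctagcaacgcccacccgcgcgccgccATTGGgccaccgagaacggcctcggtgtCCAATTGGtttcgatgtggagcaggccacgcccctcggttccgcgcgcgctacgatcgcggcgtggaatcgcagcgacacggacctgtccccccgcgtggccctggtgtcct
Hmgcs1: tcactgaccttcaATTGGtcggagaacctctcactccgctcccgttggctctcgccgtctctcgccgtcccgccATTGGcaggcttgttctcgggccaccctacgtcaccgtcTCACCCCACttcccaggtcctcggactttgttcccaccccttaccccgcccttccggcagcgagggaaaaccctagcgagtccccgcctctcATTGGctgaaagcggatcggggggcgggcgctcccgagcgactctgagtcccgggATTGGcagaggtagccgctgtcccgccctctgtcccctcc

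In the Hmgcs1 window the sterol element began 137 bases before the start, and 4 CCAAT motifs were found, none of them overlapping it. Fasn had 3 CCAAT motifs, at 90, 62 and 59 bases before its start, the last 2 of which overlap, and Lss had 1, at 62 bases. The sterol element was present in a window of 1 of the 23 genes (4.35%) and in 1.4% of the 15614 measured genes with a window. CCAAT was present in 20 of 23 (87.0%), against 41.7% of measured genes, and was missing from Scap, Acaca and Elovl6. GGGCGG was present in 19 of 23 (82.6%), against 52.9%, and the E-box in 5 of 23 (21.7%), against 9.5%. Among the 7 genes with a window that were higher in leukemia than in whole marrow, 6 held CCAAT, and among the 16 that did not pass the test 14 did. The motif was thus about as frequent in both kinds of gene. A match to these letters is a description of the window and shows no binding.

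Leukemic marrow was first set against wild type whole marrow, the healthy form of the same tissue. Of the 11 sterol genes 6 rose, among them squalene epoxidase Sqle by 2.88-fold, squalene synthase Fdft1 by 2.45-fold, lanosterol synthase Lss by 2.03-fold and lanosterol demethylase Cyp51 by 1.56-fold. Fatty acid synthase Fasn rose 2.16-fold and the regulator Srebf1 1.69-fold, whereas the desaturase Scd1 fell. In all, 10 of the 29 genes were higher in the leukemias and 1 was lower by limma at an adjusted p under 0.05, and 18 did not pass. Of all 19938 genes 14.6% were higher and 9.93% lower, against 34.5% and 3.45% of the 29. Dim genes count in the shares over all genes. Among the 11001 genes above the median intensity in at least 1 group, 44.7% were called, 2964 higher and 1958 lower. All 29 genes were among these, with 12 higher and 1 lower in that setting. Counted in either direction, they were called about as often as genes of that intensity. Against such genes the count of calls is thus no result about the 29 as a set. The median log2 difference was 0.32 over the 29 genes and -0.02 over all genes. The 3 leukemia arrays all lay above the 3 whole marrow arrays for 14 of the 29 genes and all below for 1, against 19.4% and 17.7% of all genes, 37.1% together.

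None of the 6 measured mevalonate genes passed the limma test in this comparison with all arrays, and 1 had an unadjusted p under 0.05. All 6 differences were positive with the deposited scaling, with a median of 0.21 on the log2 scale, and Mvk turned to -0.022 with arrays centred on their 75th percentile. Idi1, the isomerase that interconverts the isoprenoid units, came nearest. Its intensity was 165.5, 192.5 and 175.1 in whole marrow arrays 1 to 3 and 204.7, 325.5 and 306.1 in leukemia arrays 1 to 3, an order kept in all the values that follow. Every leukemia array lay above every whole marrow array, and leukemia array 1 was the lowest of its group. The log2 difference was 0.62 ± 0.22 (SE), with an adjusted p of 0.0763, and a second probe set of the gene gave 0.69. Fdps, which builds farnesyl diphosphate, differed by 0.41 ± 0.20 with an adjusted p of 0.202, and by 0.64 with an adjusted p of 0.026 without whole marrow array 2. Its whole marrow values were 110.5, 167.0 and 96.4 against 144.9, 157.7 and 181.6 in the leukemias, so whole marrow array 2 lay inside the leukemia range. The other four, Hmgcs1, the kinases Mvk and Pmvk and the decarboxylase Mvd, had log2 differences of 0.06 to 0.27. Hmgcs1, the carrier of the sterol element, read 104.7, 131.3 and 98.8 in whole marrow and 121.4, 108.2 and 143.1 in the leukemias, and its groups overlapped.

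None of the sterol genes fell. Fdft1 joins farnesyl units into squalene. Its intensity was 145.1, 177.3 and 133.7 in whole marrow and 400.8, 415.9 and 304.4 in the leukemias. The lowest leukemia array was well above the highest whole marrow array. The log2 difference was 1.29 ± 0.21 with an adjusted p of 0.00301, and the second Fdft1 probe set gave 0.84. Sqle, which adds oxygen to squalene, read 51.5, 51.0 and 51.4 in whole marrow and 165.2, 151.7 and 128.1 in the leukemias. Whole marrow values were nearly identical and the leukemias spread widely above them, with a log2 difference of 1.52 ± 0.17 and an adjusted p of 0.00095. Lss, whose window is printed above, read 32.3, 30.7 and 31.2 against 70.7, 63.7 and 57.5. Its groups were far apart, and its log2 difference was 1.02 ± 0.12 with an adjusted p of 0.00114. The whole marrow mean of Lss, 31.4, lay below the median of all probe sets, 33.4. Background can limit the size of a change at that level, and its part in the fold of Lss was not tested.

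Cyp51 takes a methyl group off lanosterol. It read 51.0, 46.6 and 45.2 in whole marrow and 72.2, 74.6 and 76.0 in the leukemias, tight groups with a clear gap, and the log2 difference was 0.64 ± 0.13 (adjusted p 0.00858). Nsdhl, a dehydrogenase that takes part in removing methyl groups at another carbon of the ring, rose by 0.32 ± 0.09, from 132.2, 152.8 and 125.8 to 160.6, 180.8 and 169.2. Dhcr7, a reductase of a late step, rose by 0.31 ± 0.10, from 70.2, 62.3 and 73.2 to 76.1, 85.5 and 93.7. The leukemia values of both lay above all whole marrow values but by small margins, and their adjusted p-values were 0.0397 and 0.0463. Ebp, the sterol isomerase, differed by 0.46 ± 0.16 with an adjusted p of 0.0657, and its arrays did not overlap. The remaining sterol genes showed values on both sides of 0: Tm7sf2, a sterol reductase, 0.01, Hsd17b7, a ketoreductase, -0.02, Sc5d, a desaturase, -0.15, and Msmo1, a methyl oxidase, -0.23. Msmo1 varied most, with whole marrow intensities of 220.0, 360.9 and 156.3 around leukemia values of 182.1, 178.2 and 239.5.

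Of the 6 regulators 3 rose. Srebf1 read 58.7, 67.0 and 55.8 in whole marrow and 96.2, 104.4 and 105.2 in the leukemias, a log2 difference of 0.76 ± 0.13 with an adjusted p of 0.00484. Its groups were separate, with little spread inside either. Scap rose by 0.41 ± 0.10 (adjusted p 0.0179), from 141.7, 141.9 and 160.6 to 206.1, 216.9 and 170.8. Stard4, a carrier that moves sterol between membranes, rose by 0.62 ± 0.17 (adjusted p 0.0299), from 68.9, 91.2 and 78.9 to 101.0, 158.2 and 113.4. Leukemia array 3 was the lowest of its group for Scap and array 1 for Stard4, both still above whole marrow. Srebf2, by contrast, read 272.6, 277.2 and 273.3 in whole marrow against 276.6 to 315.1 in the leukemias, with groups that overlapped. Its log2 difference was 0.11, with a 95% interval of -0.05 to 0.28. Insig1, itself a target of SREBP, read 192.9, 207.6 and 220.0 in whole marrow and 332.3, 263.9 and 238.5 in the leukemias. The arrays did not overlap, and the log2 difference of 0.42 ± 0.15 had an adjusted p of 0.0705. Insig2 differed by 0.15 ± 0.10.

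**Figure D1:**
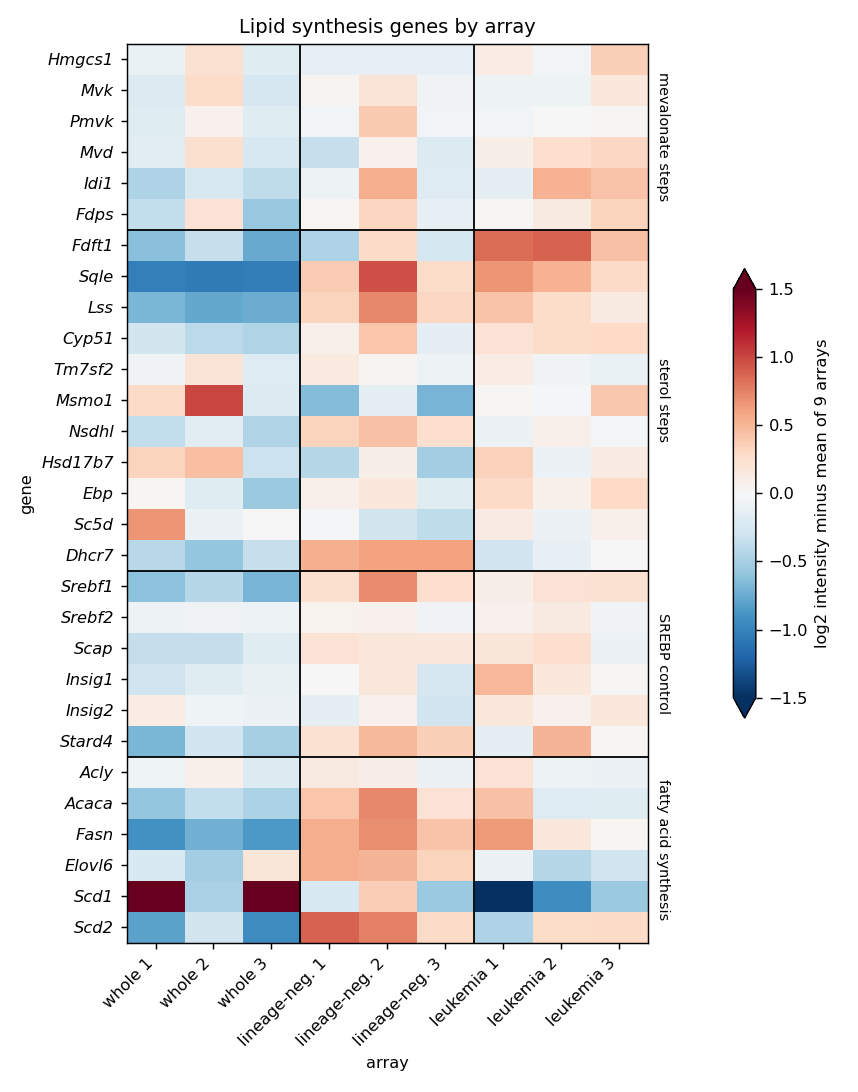
Heat map of the 29 genes (rows, by role) on the 9 arrays (columns), coloured by log2 intensity minus the gene's mean over the arrays, on a scale cut at -1.5 and 1.5. Fdft1, Sqle, Lss, Srebf1 and Fasn are blue on all 3 whole marrow arrays, whereas Scd1 is dark red on whole marrow arrays 1 and 3.

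The fatty acid genes parted in direction. Fasn, which makes palmitate, read 118.2, 135.4 and 122.0 in whole marrow and 344.2, 249.7 and 228.0 in the leukemias, with a log2 difference of 1.11 ± 0.15 and an adjusted p of 0.00167. Leukemia array 1 was the highest, and all leukemias lay above whole marrow. Acaca, which makes the malonyl-CoA that Fasn uses, read 111.2, 128.7 and 119.7 against 225.5, 145.0 and 147.5. The groups did not overlap, the log2 difference was 0.50 ± 0.19 with an adjusted p of 0.0911, and a second probe set gave 0.47. Acly, which supplies cytosolic acetyl-CoA, and the elongase Elovl6 differed by 0.09 and -0.08, with overlapping arrays.

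Scd1 and Scd2, which put the double bond into saturated fatty acids, had differences of opposite sign. Scd1 read 631.6, 127.4 and 821.4 in whole marrow and 57.0, 93.1 and 120.8 in the leukemias. The groups did not overlap, but whole marrow array 2 lay just above the highest leukemia and far below the other whole marrow arrays. Scd1 fell by 2.23 ± 0.64 on the log2 scale, with an adjusted p of 0.0347, and without whole marrow array 2 it fell by 3.06 (adjusted p 0.00262). Scd2 read 255.5, 368.6 and 234.3 against 325.9, 541.6 and 548.2, a log2 difference of 0.71 ± 0.26 with an adjusted p of 0.0792, and its leukemia array 1 lay within the whole marrow range. It was higher without whole marrow array 2 (0.91, adjusted p 0.0468) and without leukemia array 1 (0.96, adjusted p 0.0221). Marker sums went both ways over the whole marrow arrays. The B cell sum was 3068, 1260 and 5397, the erythroid sum 4641, 3106 and 7390 and the stem and progenitor sum 943, 768 and 833. Each was lowest on array 2, as was Scd1. Highest on array 2 were the T and NK cell sum, at 1570, 1732 and 1219, and the monocyte and macrophage sum, at 2137, 2455 and 1813. The neutrophil sum fell from array 1 to array 3, at 50103, 46952 and 43107. Among adipocyte markers, fat cells being rich in Scd1, Adipoq, Plin1, Plin4, Cidec, Cidea, Lep and Pck1 had every group mean below the median of all probe sets, whereas Lipe lay above it in every group and Fabp4, Retn and Pparg in whole marrow and, apart from Retn, in the leukemias. Lipe read 6.95, 6.95 and 6.71 on the log2 scale in whole marrow, with array 2 no lower than the others. Of the 11 adipocyte markers, Pparg was higher in the leukemias than in whole marrow (adjusted p 0.0359), and Lipe and Retn were lower (0.0466 and 0.0276). The summed intensity of 11 adipocyte markers was 368 to 429 in whole marrow, 286 to 291 in lineage-negative marrow and 341 to 671 in the leukemias. The part of the cells that these marker lists stand for in the Scd1 values was not tested.

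Of the 11 calls between leukemia and whole marrow, those of Fdft1, Sqle, Lss, Cyp51, Srebf1 and Fasn held in all 15 alternative settings run. The call of Nsdhl ended on leaving out whole marrow array 1 or 3, lineage-negative array 1 or 3, or leukemia array 2 or 3 (adjusted p 0.0557 to 0.125), that of Dhcr7 without any 1 array except leukemia array 1 (0.0528 to 0.144) and with the filter on dim genes (0.0535), and that of Scap without whole marrow array 1 or 2 or leukemia array 1 or 2 (0.0534 to 0.062). That of Stard4 ended without whole marrow array 1 or 3, lineage-negative array 3 or leukemia array 2 (0.0501 to 0.101), and that of Scd1 without whole marrow array 1 or 3, lineage-negative array 1 or 3, or leukemia array 1 or 2 (0.0519 to 0.115). Those same 6 genes alone were higher without leukemia array 2, with arrays centred on their 75th percentile, with cyclic loess, and with only the 2 groups in the fit, where Scd1 did not pass either (adjusted p 0.0741). Moderation with a trend ended the calls of Nsdhl (0.106) and Dhcr7 (0.115). Calls were also gained: Idi1, Ebp and Scd2 were higher with the filter on dim genes (0.0486, 0.0489 and 0.0485), Idi1 without lineage-negative array 2 or leukemia array 1 (0.0356 and 0.0236), Ebp without whole marrow array 1 (0.0364) and Insig1 without leukemia array 3 (0.046). The share of all calls that were higher went from 59.4% to 47.7% with that centring and to 47.2% with cyclic loess.

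**Figure D2:**
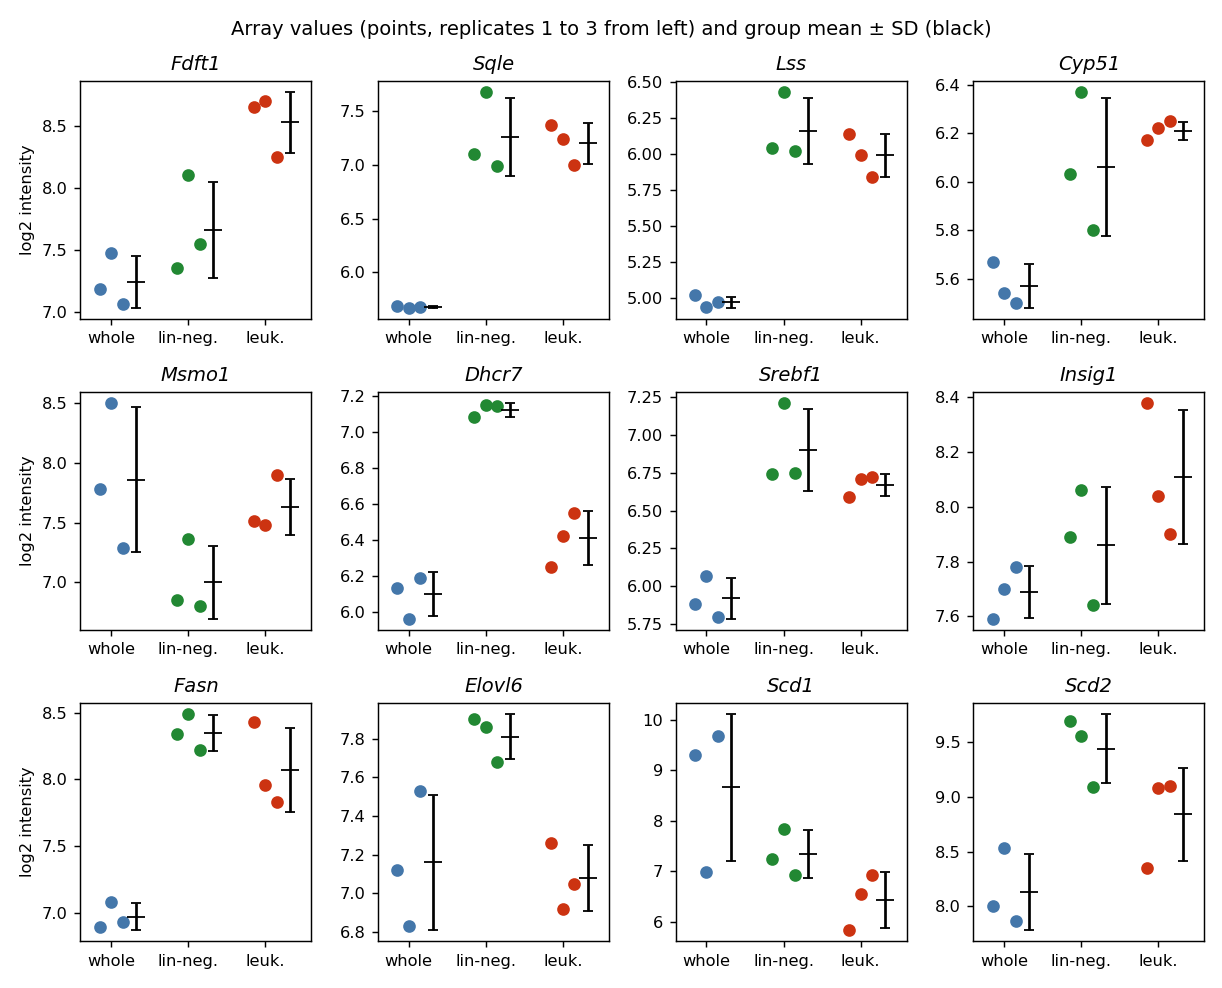
Log2 intensity of 12 of the genes on each array (points, replicates 1 to 3 from left) in whole, lineage-negative and leukemic marrow, with the group mean ± SD in black; each panel has its own axis, which does not start at 0. Sqle sits at 5.67 to 5.69 in whole marrow and at 6.99 or above on all other arrays, Dhcr7 is highest in lineage-negative marrow, and Scd1 of whole marrow array 2, at 6.99, lies apart from 9.30 and 9.68.

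Leukemic marrow was next set against lineage-negative marrow, the wild type fraction enriched for immature cells. Few of the genes passed the test. Fdft1 rose 1.83-fold, and 2 genes fell: Dhcr7, 1.64-fold lower, and Elovl6, 1.66-fold lower. The remaining 26 did not pass. The 3 calls make 10.3% of the 29 genes, close to the 8.69% of all genes called in this comparison (2.95% higher and 5.74% lower), so the count is no result about these genes as a set. The median log2 difference was -0.05, against 0.01 over all genes. For 5 genes all leukemia arrays lay above, and for 5 below, the lineage-negative arrays, and over all genes 27.9% did not overlap.

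Fdft1 read 162.8, 273.6 and 187.4 in lineage-negative marrow, below the leukemia values of 304.4 to 415.9. Lineage-negative array 2 was the nearest to them. The log2 difference was 0.87 ± 0.21 with an adjusted p of 0.0367, and the second probe set gave 0.77. Dhcr7 read 135.1, 142.0 and 141.2 in lineage-negative marrow against 76.1, 85.5 and 93.7 in the leukemias. Its lineage-negative values were close together, all above the leukemias, and it fell by 0.72 ± 0.10 on the log2 scale with an adjusted p of 0.00431. Elovl6, which lengthens palmitate to stearate, read 238.6, 232.0 and 204.9 against 153.2, 121.1 and 132.9. It fell by 0.73 ± 0.17 with an adjusted p of 0.0335, and again no arrays overlapped.

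Apart from Fdft1, the genes whose calls against whole marrow were stable did not pass here, and their intervals bound the difference. Sqle differed by -0.05, with a 95% interval of -0.44 to 0.34, and Lss by -0.17, with one of -0.45 to 0.11. The interval was -0.15 to 0.45 for Cyp51, -0.53 to 0.08 for Srebf1 and -0.62 to 0.07 for Fasn. Equal levels were thus not shown. Nsdhl, at -0.36 ± 0.09 with an adjusted p of 0.0518, lay nearest the threshold among genes that did not pass. Among the fatty acid genes all 6 differences were negative, with a median of -0.52, although Acly turned positive with both other scalings: Acaca differed by -0.43, Scd2 by -0.60 and Scd1 by -0.91, with adjusted p-values of 0.215, 0.207 and 0.491. For the mevalonate and regulator genes the range was -0.23 to 0.37 on the log2 scale.

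The Dhcr7 call held in all 15 alternatives. That of Fdft1 ended with only the 2 groups in the fit (adjusted p 0.0703) and without whole marrow array 1, lineage-negative array 1 or 3, or leukemia array 1 or 2 (adjusted p 0.0624 to 0.118), and that of Elovl6 without whole marrow array 1, any 1 lineage-negative array, or leukemia array 2 or 3 (0.058 to 0.112). Without whole marrow array 2 Nsdhl was lower as well (adjusted p 0.0326), and without leukemia array 1 Acaca (0.0382) and Fasn (0.0449) were, and with cyclic loess Insig2 was higher (0.0335). The share of all calls that were higher was 34% here, 44% with centring on the 75th percentile and 44.9% with cyclic loess.

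**Figure D3:**
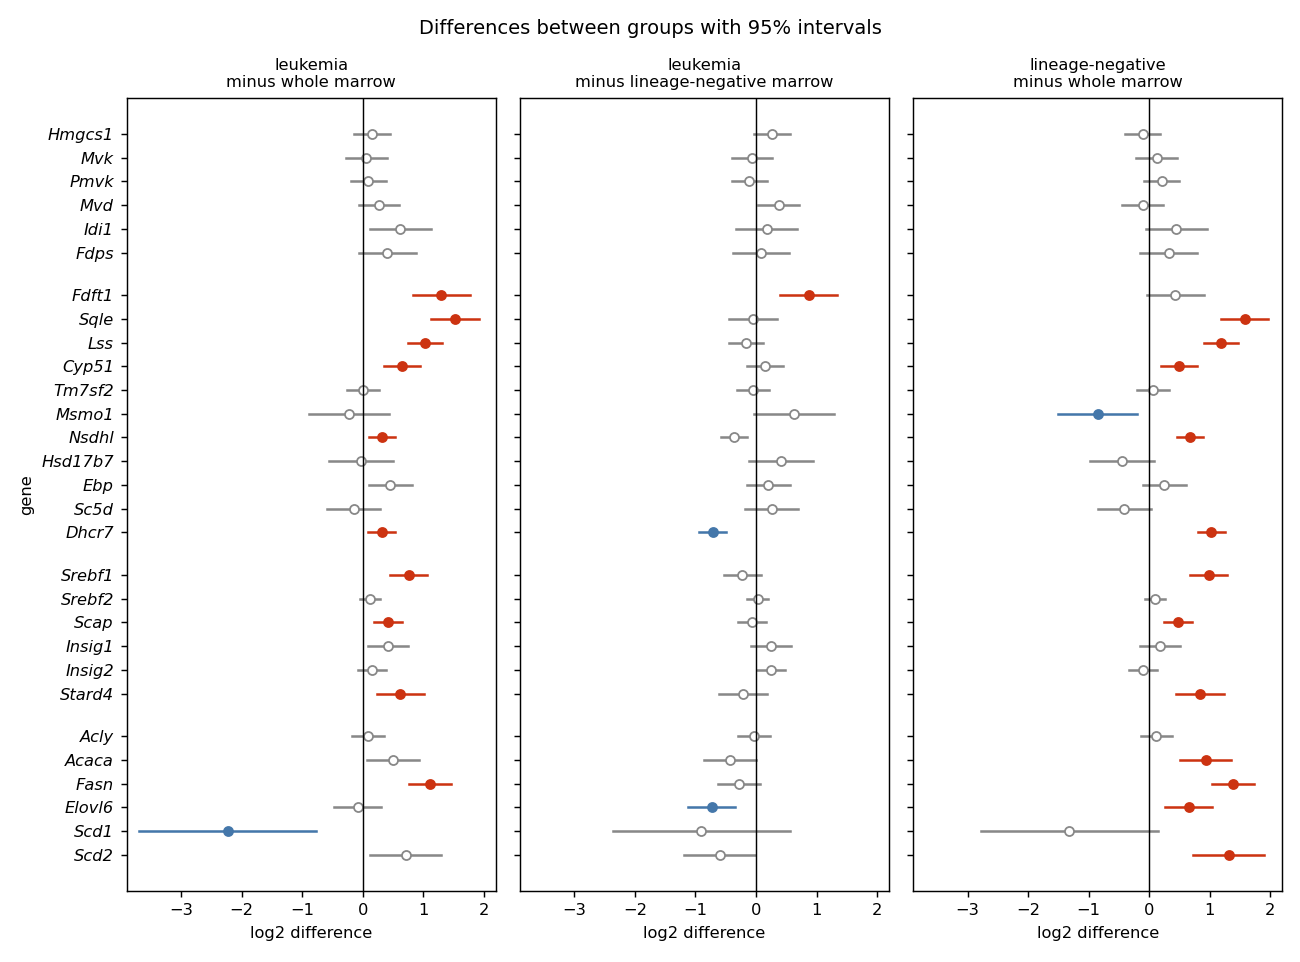
Log2 difference of each of the 29 genes with its 95% interval in the 3 comparisons, with filled red points for genes higher and filled blue points for genes lower at an adjusted p under 0.05, and open points for the rest. Sqle and Lss lie far to the right in both comparisons with whole marrow and near 0 between leukemia and lineage-negative marrow, and the Scd1 interval is the widest.

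The wild type groups were then compared with each other, to show how these genes differ between immature and whole marrow without leukemia. In lineage-negative marrow 12 of the 29 genes were higher, 1 was lower and 16 did not pass. That is 41.4% and 3.45% of the genes, against 21.7% and 13% of all genes, or 34.7% in either direction, and the median log2 difference was 0.32 against -0.03. Among the 11001 genes above the median intensity in at least 1 group, 58.8% were called, 4271 higher and 2199 lower. Of the 29 genes, 12 were higher and 1 lower in that setting too, or 44.8%. Against genes of that intensity the count is thus no result about the 29 as a set. For 13 of the genes every lineage-negative array lay above every whole marrow array and for none below. Over all genes 26.6% lay wholly above, and 50% did not overlap in one direction or the other. This comparison and the first share the whole marrow arrays, so their values stand side by side without a test of overlap.

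As between leukemia and whole marrow, no mevalonate gene passed, 0 had an unadjusted p under 0.05 by limma, and their log2 differences were -0.11 to 0.45. Of the sterol genes 5 rose. Sqle rose by 1.57 ± 0.17 on the log2 scale, to 137.1, 204.5 and 127.4, and Lss by 1.19 ± 0.12, to 65.7, 86.1 and 65.0. Dhcr7 rose by 1.03 ± 0.10 here, against the 0.31 ± 0.10 of the leukemias, and Nsdhl by 0.68 ± 0.09 against 0.32 ± 0.09. Cyp51 rose by 0.49 ± 0.13, to 65.3, 82.5 and 55.7. Adjusted p-values of these genes ran from 0.000129 for Dhcr7 to 0.018 for Cyp51, and the arrays did not overlap for any of the 5. Fdft1 did not pass, at 0.43 ± 0.21 with an adjusted p of 0.152, and its arrays overlapped. Msmo1 fell by 0.85 ± 0.29, to 115.3, 163.8 and 111.7, with an adjusted p of 0.0492 just under the threshold, and lineage-negative array 2 lay above whole marrow array 3.

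Srebf1, Stard4 and Scap rose in this comparison as well, Srebf1 by 0.98 ± 0.13 to 106.6, 148.0 and 107.6, Stard4 by 0.84 ± 0.17 to 129.5, 155.7 and 141.7, and Scap by 0.48 ± 0.10 to 211.1, 204.4 and 201.9. All of these arrays lay above those of whole marrow, and adjusted p-values were 0.000674, 0.00507 and 0.00593. Srebf2 differed by 0.09, with a 95% interval of -0.08 to 0.25. Of the fatty acid genes 4 rose: Fasn by 1.39 ± 0.15, Scd2 by 1.31 ± 0.26, Acaca by 0.93 ± 0.19 and Elovl6 by 0.65 ± 0.17. Fasn read 324.8, 359.9 and 298.2, Scd2 824.0, 754.9 and 543.1, and Acaca 222.7, 274.8 and 193.7, in each case above every whole marrow value. Scd1, at 151.3, 229.6 and 121.3, differed by -1.32 ± 0.64 with an adjusted p of 0.152. Without whole marrow array 2 it was lower, by -2.16 with an adjusted p of 0.00353, so its result between the wild type groups turned on that array.

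The calls of Sqle, Lss, Nsdhl, Dhcr7, Srebf1, Stard4, Acaca, Fasn and Scd2 held in all 16 alternatives of this comparison. The call of Cyp51 ended without whole marrow array 2 or 3 (adjusted p 0.052 and 0.0577), that of Elovl6 without whole marrow array 1 or lineage-negative array 1 or 2 (0.0511 to 0.0551), and that of Msmo1 without any 1 array except whole marrow array 3 and lineage-negative array 2 (0.0559 to 0.142), its difference being -0.53 without whole marrow array 2. Both other scalings also ended the calls of Cyp51 and Scap, and cyclic loess that of Elovl6. Without whole marrow array 2 Fdps was higher (adjusted p 0.0303), and without array 3 Hsd17b7 was lower (0.0316). Sc5d was lower with centring on the 75th percentile (-0.535, adjusted p 0.0254) and with cyclic loess (-0.684, adjusted p 0.0168). Cyclic loess also made Insig2 lower (-0.365, adjusted p 0.00937). Centring on the 75th percentile moved the median of all genes from -0.03 to -0.16 and left 10 of the 29 genes higher and 2 lower. The share of all calls that were higher fell from 62.6% to 50.3% with that centring and to 51.2% with cyclic loess.

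Ordered by group mean with the deposited scaling, 14 of the 29 genes (48.3%) were highest in lineage-negative and lowest in whole marrow, with the leukemias between, an order that 23.4% of all genes had. For 7 genes (24.1%, against 11% of all genes) the leukemias were highest and whole marrow lowest: Idi1, Fdps, Fdft1, Cyp51, Ebp, Srebf2 and Insig1. In 4 of the genes whole marrow was highest: Scd1, with the leukemias lowest, and Msmo1, Hsd17b7 and Sc5d, with lineage-negative marrow lowest. Most neighbours in these orders did not differ beyond their spread. For Fdft1 the leukemias, at a mean log2 intensity of 8.53 ± 0.25 (SD, n = 3), stood above both wild type groups, at 7.66 ± 0.39 and 7.24 ± 0.21, which did not pass against each other. Dhcr7 was the one gene whose means passed the test at every step with all arrays, although the first of these steps passed in only 2 of the 15 alternatives. Its means went from 6.10 ± 0.12 in whole marrow over 6.41 ± 0.15 in the leukemias to 7.12 ± 0.04 in lineage-negative marrow.

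Within each group, the array that held the highest value was counted over the genes. Of the 29 genes, 23 (79.3%) had their highest lineage-negative value on array 2, as had 43% of all genes, and none had it on array 3, as had 24.5%. All 6 mevalonate genes and the sterol genes from Fdft1 to Cyp51 were among the 23. Hmgcs1, though, was nearly level over lineage-negative arrays 1 to 3, at 102.5, 102.6 and 102.6. On lineage-negative array 2 the summed neutrophil markers were lowest of the group, at 780 against 2534 and 1907. The summed DNA replication genes were highest there, at 15946 against 13512 and 13601. The stem and progenitor sum was lowest there too, at 2064 against 3145 and 3037, and the erythroid sum highest, at 13097 against 10693 and 11157. Sums of the B cell, T and NK cell, and monocyte and macrophage markers were also lowest on it. Whole marrow array 2 held the highest value of its group for 18 of the genes (62.1%, against 47.9% of all genes), again with all 6 mevalonate genes. In the leukemias the highest values were divided, 10 on array 1 (34.5%, against 30.3% of all genes), 6 on array 2 (20.7%, against 42.9%) and 13 on array 3 (44.8%, against 26.9%). Leukemia array 1 held them for Sqle, Lss, Insig1, Acaca and Fasn, and array 3 for Hmgcs1, Mvk, Pmvk, Mvd and Fdps. The median SD of the 29 genes was 0.15 in whole marrow, 0.21 in lineage-negative marrow and 0.17 in the leukemias, against 0.13, 0.10 and 0.13 over all genes. The part of the marker genes in this spread was not tested.

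Genes around the pathway were read from further lists. Among 14 other sterol and SREBP genes, 2 rose in the leukemias against whole marrow and none fell. Their share, 14.3%, was near the 14.6% of all genes that were higher, so the count is no result about this list. The 2 were Pgrmc1, a heme protein that binds Cyp51 and other P450 enzymes, by 0.92 ± 0.13, and Rnf139, a ubiquitin ligase of the sterol-sensing machinery, by 0.70 ± 0.11. Pgrmc1 read 7.24, 7.14 and 6.98 on the log2 scale in whole marrow and 8.12, 8.22 and 7.79 in the leukemias, with no overlap. The list's median was -0.06, and 12 of its genes did not pass. Of 9 genes of sterol export and the sterol receptor LXR, 2 rose (22.2%, against 14.6% of all genes): Apoe, the apolipoprotein that carries cholesterol between cells, by 1.44 ± 0.27, and the phospholipid enzyme Lpcat3 by 0.67 ± 0.08. Apoe stood at 8.83, 9.09 and 8.96 in whole marrow, 7.98, 8.31 and 9.08 in lineage-negative marrow and 10.21, 10.80 and 10.21 in the leukemias. The leukemias were the highest group on every array, and Apoe rose against lineage-negative marrow too, by 1.95 ± 0.27 (adjusted p 0.00491). Lpcat3, Pgrmc1 and Rnf139 did not pass the limma test against lineage-negative marrow (adjusted p 0.625, 0.916 and 0.129). Lineage-negative marrow had them higher than whole marrow by 0.76, 0.88 and 0.39. Over the monocyte and macrophage markers, cells known to make Apoe, the summed intensity was 1813 to 2455, 516 to 847 and 1278 to 3068 in the same order of groups, and their part in the Apoe values was not tested.

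Of 15 genes that use isoprenoid units for ubiquinone, dolichol or protein prenylation, 7 rose in the leukemias against whole marrow and 1 fell (46.7% and 6.67%, against 14.6% and 9.93% of all genes), with a median of 0.27. Coq5, a methylase of ubiquinone synthesis, rose by 0.74 ± 0.17, and Dhdds, which builds the dolichol chain, fell by 0.74 ± 0.18. Leaving out whole marrow array 1 or 2 ended the Dhdds call (adjusted p 0.0558 and 0.0575). Between the wild type groups 12 of the 15 were higher in lineage-negative marrow (80%, against 21.7% of all genes), 6 with centring on the 75th percentile and 7 with cyclic loess. Of 26 further fatty acid synthesis genes 7 rose and 2 fell in the leukemias against whole marrow, which is 26.9% and 7.69%, against 14.6% and 9.93% of all genes. Fads2, the desaturase that starts the synthesis of polyunsaturated fatty acids, rose by 2.00 ± 0.19, from 7.81, 7.27 and 7.94 to 9.79, 9.89 and 9.35. Acss2, which turns acetate into acetyl-CoA, rose by 1.77 ± 0.26, from 6.05, 5.97 and 5.66 to 8.29, 7.57 and 7.15. Both were wholly separate from whole marrow, and the list's median was 0.06, or -0.02 with centring on the 75th percentile. Fads2 and Acss2 were higher in lineage-negative than in whole marrow too, by 2.14 and 1.47. Between leukemia and lineage-negative marrow neither passed the limma test (adjusted p 0.773 and 0.584), nor did any other of the 26.

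Genes that burn fatty acids were read in the same way. Of 22 measured, 11 were higher in the leukemias than in whole marrow and 2 lower (50% and 9.09%, against 14.6% and 9.93% of all genes), with a median of 0.48, and 6 to 13 were higher when 1 array at a time was left out. Acadm, the medium-chain dehydrogenase, rose by 0.81 ± 0.15 and Etfa, which takes up its electrons, by 0.70 ± 0.14, and both lay above whole marrow on every leukemia array. Cpt1a, the carnitine transferase of mitochondrial entry, and the coactivator Ppargc1a were the 2 that fell, named after their values were seen. Between the wild type groups 16 of the 22 were higher in lineage-negative marrow and 1 lower, with Acadm and Etfa among the 16. That is 72.7% and 4.55%, against 21.7% and 13% of all genes. With cyclic loess the calls of Acadm and Etfa ended there (adjusted p 0.0779 and 0.109). None of the 22 passed between leukemia and lineage-negative marrow. Of 19 DNA replication genes 17 rose in the leukemias against whole marrow (89.5%, against 14.6% of all genes), 13 with centring on the 75th percentile, 11 with cyclic loess and 12 to 16 with 1 array left out, and 18 rose in lineage-negative marrow (94.7%, against 21.7%). Their summed intensity was 8090 to 9493 in whole marrow, 13512 to 15946 in lineage-negative marrow and 12493 to 12884 in the leukemias. The part of cell division in the differences of the lipid genes was not tested.

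**Figure D4:**
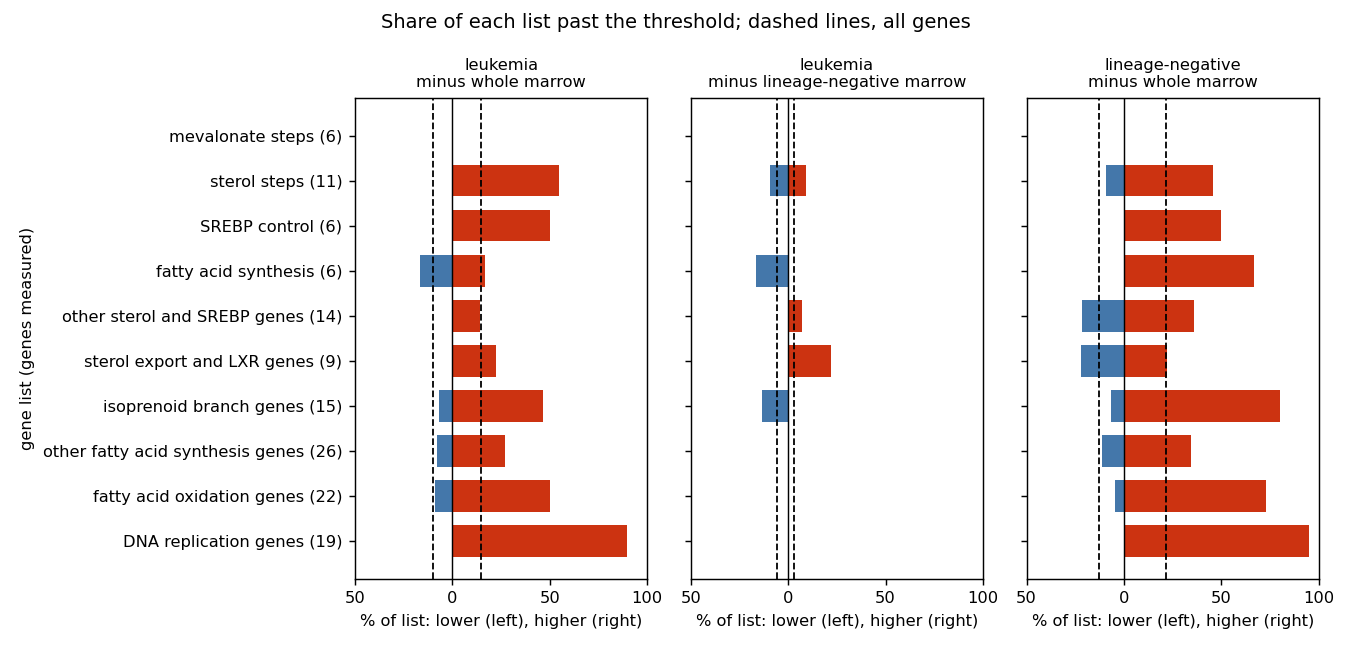
Share of each gene list (number of genes measured in brackets) that was higher (red, right) or lower (blue, left) at an adjusted p under 0.05 in the 3 comparisons, with dashed lines at the shares over all genes. The mevalonate steps have no bar in any panel, and 17 of 19 DNA replication genes are higher in leukemia than in whole marrow.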

How the data were processed

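Affymetrix whole-transcript arrays measured 28853 probe sets in 9 samples, 3 for each group. The authors deposited linear intensities from RMA, run in Partek per the submitters' processing notes. Versions, genome build and probe sequences were not given in the sources used. RMA normalizes arrays together, which can hide a shift shared by most genes. The tests had been planned for log2 values, so the intensities were log2-transformed first. Of the probe sets, 21789 had 1 symbol in the platform annotation, 1621 had several and 5443 had none, and those with 1 symbol gave 19938 genes. No filter on dim genes was set, so every share over all genes includes dim genes. With a filter at the median intensity, 11001 genes stayed. Of these, 44.7% were called between leukemia and whole marrow, 15.8% between leukemia and lineage-negative marrow and 58.8% between the wild type groups.

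All 9 arrays entered 1 limma fit (version 3.58.1, under R 4.3.3) by lmFit and contrasts.fit, moderated by eBayes with no trend, on 6 residual plus 2.62 prior degrees of freedom. Two-sided p-values were used, with Benjamini-Hochberg adjustment over all genes of a comparison and a threshold of 0.05. Differences are log2 ± SE, and folds are those of geometric means. Whole marrow and leukemia arrays are separate mice and lineage-negative arrays are pools, so the shared spread is not that between mice alone.

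All members could be named, and of each other list the 2 genes with the largest change past the threshold between leukemia and whole marrow. The genes and lists were chosen with earlier results of these data known. Alternatives were 2 other scalings, the mean over probe sets, a filter at the median intensity, eBayes with trend, a fit of the 2 groups alone, each array left out, and a replicate block. The fit was tested on simulated data. Plots used Python 3.11.15 and matplotlib 3.10.9.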

Additional observations from a re-analysis of the deposited data

How the results depend on the processing

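With 3 arrays per group, no log2 difference of these genes under 0.31 passed. RMA signals near the median intensity hold little above background, which can limit the changes read for Lss and Pmvk against whole marrow. Over the 29 genes, 3 comparisons and all alternatives, 1191 values kept their direction and side of the threshold, 75 lost a call, 21 gained one and 47 changed sign; the 47 concern differences that did not pass in the main analysis. The cause of these changes was not tested, apart from fewer arrays or genes where the setting itself removes them.

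Counts moved by over 1.5 times as follows. Between leukemia and whole marrow, 6 genes were higher, in place of 10, with centring on the 75th percentile, with cyclic loess and with only the 2 groups compared, and in that last setting 0 were lower. Between leukemia and lineage-negative marrow, 2 were higher with cyclic loess and 0 with the 2 groups alone. Between the wild type groups 2 were lower with centring, 3 with cyclic loess and 0 with the 2 groups alone. When 1 array at a time was left out, the higher and lower counts were 6 to 11 and 0 to 1 for leukemia against whole marrow, 0 to 1 and 1 to 4 for leukemia against lineage-negative marrow, and 11 to 12 and 0 to 2 for the wild type groups. All genes called then ranged from 3602 to 4750, from 804 to 1757 and from 5474 to 7210, against 4881, 1733 and 6915 with all arrays. The second of these was 804, 1054 and 958 without lineage-negative arrays 1, 2 and 3 and 1007 without leukemia array 3.

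Changes of sign arose in small differences. With centring they were, between leukemia and whole marrow, Mvk -0.022 and Tm7sf2 -0.075, between leukemia and lineage-negative marrow Acly 0.009, and between the wild type groups Mvk -0.003, Tm7sf2 -0.065, Srebf2 -0.036 and Acly -0.006. With cyclic loess they were, in the same order, Tm7sf2 -0.001, Srebf2 -0.076, Insig2 -0.004 and Acly -0.106, then Sqle 0.059, Scap 0.044 and Acly 0.057, then Ebp -0.026, Srebf2 -0.194, Insig1 -0.109 and Acly -0.162. With 1 array left out, leukemia minus whole marrow ran from -0.031 to 0.228 for Mvk, -0.081 to 0.116 for Tm7sf2, -0.264 to 0.125 for Hsd17b7, -0.289 to 0.09 for Sc5d, -0.509 to 0.095 for Msmo1, -0.246 to 0.103 for Elovl6 and -0.015 to 0.157 for Acly. Leukemia minus lineage-negative marrow ran from -0.116 to 0.002 for Tm7sf2, -0.133 to 0.02 for Acly, -0.137 to 0.005 for Mvk, -0.186 to 0.032 for Pmvk, -0.183 to 0.159 for Sqle, -0.015 to 0.211 for Fdps, -0.018 to 0.076 for Srebf2, -0.133 to 0.039 for Scap, -0.049 to 0.166 for Pgrmc1, -0.004 to 0.568 for Acss2 and -0.245 to 0.025 for Fads2. Between the wild type groups it ran from -0.193 to 0.012 for Hmgcs1, -0.217 to 0.042 for Mvd and -0.029 to 0.168 for Tm7sf2.

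The wild type groups share replicate numbers, and whether same-numbered arrays also share mice is not settled here. Deviations of same-numbered arrays correlated at 0.312, -0.009 and -0.009. Arrays of unlike number were not correlated for reference, so these values cannot decide whether same-numbered arrays were handled together. The main fit did not pair them. A replicate block on the 6 wild type arrays called 12 genes higher and 1 lower, as without it, and 4346 of all genes higher and 2547 lower; Elovl6 no longer passed and Fdft1 did. The settings for the 10 other named genes were added after seeing the data.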
